A study of Mus musculus with 6 samples.

Results

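Matrix metalloproteinases and their tissue inhibitors were followed as a set of 10 genes, taken by gene symbol from the deposited count table: the 8 metalloproteinases Mmp2, Mmp3, Mmp8, Mmp9, Mmp12, Mmp13, Mmp14 and Mmp19, and the 2 inhibitors Timp1 and Timp2. All 10 were found among the 17469 genes of the table, and all 10 passed the filter on low counts together with 12701 genes in all. RNA-seq had been run on tdTomato+ cells sorted from bone marrow stromal cell (BMSC) cultures of 6-month-old mice, with 3 libraries per genotype. Control mice were Ocn-Cre;Ai9, which carry Cre recombinase driven by the osteocalcin promoter and the Ai9 reporter, a tdTomato gene that Cre switches on. APPswe mice were TgAPPswe;Ocn-Cre;Ai9, which carry the same Cre and reporter and in addition a transgene for human amyloid precursor protein with the Swedish mutation, placed behind the general CAG promoter and a stop cassette that Cre removes. Both genotypes therefore shared Cre and the reporter, and differed by the transgene. Transgene and reporter were both limited to cells, and descendants of cells, in which the osteocalcin promoter had driven Cre, and tdTomato marked that history rather than the present state of a cell. The number of animals behind a library is not given in the sources used here, so p-values measured only the spread between these libraries.

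Metalloproteinases are zinc enzymes that cut extracellular matrix and many secreted proteins. Most are secreted as inactive pro-enzymes and are switched on when the pro-domain is cut away, while MMP14 is held in the cell membrane. TIMPs bind the active enzymes and block them, and TIMP2 also takes part, on the cell surface, in the activation of pro-MMP2 by MMP14. In bone, MMP13 from osteoblast-lineage cells and MMP9 from osteoclasts and other myeloid cells are known for their parts in the breakdown of collagen and in growth plate and fracture remodelling.

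The libraries held 19340810 to 19801060 estimated counts in controls and 21677461 to 22037840 in APPswe. Markers of the sorted cells did not follow the osteoblast label alone. The summed level of 15 macrophage markers was 17077 to 17894 FPKM (a level that is corrected for transcript length and sequencing depth) in control and 14616 to 18413 FPKM in APPswe libraries, against 160 to 177 and 129 to 210 FPKM for 16 stromal and osteoblast lineage markers. Bglap, the osteocalcin gene, averaged 0.857 FPKM in control and 0.273 FPKM in APPswe libraries, whereas Lyz2, a lysozyme of myeloid cells, averaged 9057 and 6977 FPKM. Levels below are those of whole sorted populations, in which fewer cells of a type and less RNA per cell cannot be told apart. Mouse App, to which reads of the human transgene may in part be assigned, was 275 to 281 FPKM in control and 325 to 333 FPKM in APPswe libraries, with a log2 fold change of 0.45 (SE 0.051, edgeR quasi-likelihood test, Benjamini-Hochberg adjusted p = 7.87e-05).

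Of the 10 genes, 4 were up-regulated in APPswe cells (Mmp9, Mmp3, Mmp13 and Mmp14) and 1 was down-regulated (Mmp12), where a call required an adjusted p no higher than 0.05 and an absolute log2 fold change no smaller than 1. Over all genes tested, 8.90% were up-regulated and 9.20% were down-regulated by the same rule. By the adjusted p alone, 4 of the 10 were higher and 2 were lower in APPswe, against 32.5% and 31.5% of all genes. The FPKM ranges of the genotypes did not overlap for 8 of the 10, 4 higher and 4 lower in APPswe, against 72.3% of all genes tested, so separation of the 3 control from the 3 APPswe libraries was common in these data. The median log2 fold change was 0.09 for the 10 genes and -0.02 for all genes tested. With library size alone in place of TMM normalization the median of all genes moved to -0.23, so a small difference of a single gene has to be read against that shift.

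**Figure D1:**
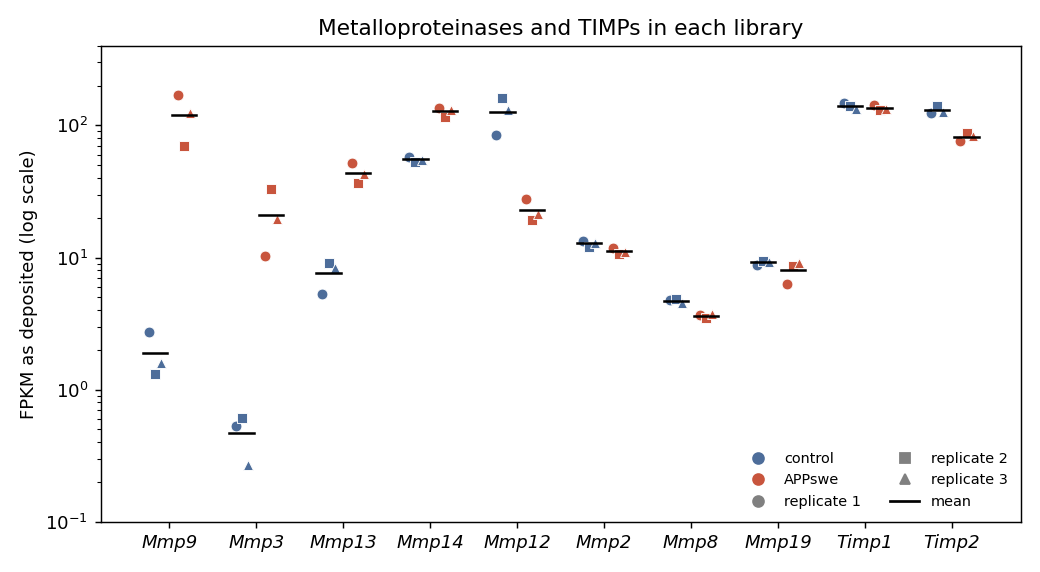
Each point is the deposited FPKM of one library on a log axis, for control (blue) and APPswe (red) libraries, with the marker shape giving the replicate number and the black line the mean of 3 libraries. Mmp9 and Mmp3 rise from 1.88 and 0.47 FPKM on average to 121 and 20.9 FPKM, Mmp12 falls from 126 to 22.8 FPKM, and Timp1 stays within one overlapping range.

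Mmp9, which encodes gelatinase B, had the largest fitted log2 fold change of the set, although its interval overlapped that of Mmp3 and without APPswe replicate 1 that of Mmp3 was the larger, at 5.99 against 5.89. Its level was 2.74, 1.31 and 1.60 FPKM in control libraries 1 to 3 and 169, 69.3 and 124 FPKM in APPswe libraries 1 to 3, from 81 to 167 and 4719 to 11604 estimated counts. The lowest APPswe library stood far above the highest control library, while the libraries within each genotype also differed widely, with a coefficient of variation of 40.1% in controls and 41.4% in APPswe. The mean rose from 1.88 ± 0.756 to 120.9 ± 50.03 FPKM (SD, n = 3 each), a ratio of 64.2. The log2 fold change was 6.23 (SE 0.414, 95% interval 5.28 to 7.17, edgeR adjusted p = 3.91e-06). Lcn2, the gene of lipocalin 2, a secreted protein that binds MMP9, was 8.41, 3.61 and 4.81 FPKM in controls and 790, 304 and 519 FPKM in APPswe. Within each genotype the libraries therefore stood in the same order for Lcn2 as for Mmp9, with replicate 1 highest and replicate 2 lowest.

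Mmp3 encodes stromelysin 1, which cuts proteoglycans and other matrix proteins and also activates other pro-metalloproteinases. It was the lowest of the 10 genes in control cells, at 0.53, 0.61 and 0.27 FPKM from 18, 21 and 9 estimated counts. In APPswe libraries 1 to 3 it reached 10.2, 33.0 and 19.4 FPKM from 390, 1252 and 730 counts. All APPswe libraries were above all controls, and the APPswe libraries differed from each other by more than for any other member, with a coefficient of variation of 54.9%. The mean rose from 0.470 ± 0.178 to 20.9 ± 11.5 FPKM, and the log2 fold change was 5.67 (SE 0.522, 95% interval 4.47 to 6.86, edgeR adjusted p = 2.48e-05).

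The order of the APPswe libraries was opposite for Mmp3 and Mmp9, replicate 2 being highest for Mmp3 and lowest for Mmp9. The order of Mmp9 was not particular to it. Mmp13, Mmp14, Mmp2, Timp1 and the down-regulated Mmp12 stood in the same order in APPswe, and Timp2 in that of Mmp3. The summed stromal and osteoblast lineage markers were 129, 210 and 173 FPKM in APPswe libraries 1 to 3, in the order of Mmp3, and their range overlapped that of the controls. The summed macrophage markers were 18413, 14616 and 15876 FPKM, in the order of Mmp9. Of the 15 macrophage markers 7 stood in the order of Mmp9 and 4 in that of Mmp3, and of the 16 stromal markers 9 stood in the order of Mmp3 and 1 in that of Mmp9. Lyz2, one of the 7, was the most abundant marker, at 8724, 5379 and 6830 FPKM. Without it, an omission chosen after the data were seen, the other 14 markers summed to 9689, 9237 and 9046 FPKM in APPswe and to 8630, 8214 and 8058 FPKM in control libraries 1 to 3, no longer in the order of Mmp9 in APPswe and with every APPswe library above every control. Of the 15 stromal markers tested 2 were up-regulated and 0 down-regulated, namely Lum and Dcn, both small matrix proteoglycans of fibroblasts. Dcn was 0.36, 0.61 and 0.37 FPKM in controls and 1.27, 10.3 and 6.38 FPKM in APPswe libraries, in the order of Mmp3, and Lum was 0.63, 0.80 and 0.87 FPKM in APPswe libraries, not in that order. In control libraries 1 to 3 the stromal sums were 177, 160 and 171 FPKM, in the order of Mmp9 and not of Mmp3. The macrophage sums there were 17894, 17102 and 17077 FPKM, in the order of neither gene. The part of these markers in the Mmp3 and Mmp9 results was not tested.

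Mmp13 encodes collagenase 3, the main interstitial collagenase of mouse bone. It measured 5.32, 9.11 and 8.36 FPKM in control libraries and 52.4, 36.6 and 43.0 FPKM in APPswe libraries. The genotypes were well separated and the libraries of each lay closer together than for Mmp9 or Mmp3. The mean rose from 7.60 ± 2.01 to 44.0 ± 7.92 FPKM, a ratio of 5.79, with a log2 fold change of 2.75 (SE 0.207, 95% interval 2.28 to 3.23, edgeR adjusted p = 7.72e-06).

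Mmp14, the gene of the membrane-bound enzyme MT1-MMP, was already high in controls and was the most evenly measured of the genes called. Its level was 57.4, 53.3 and 55.0 FPKM in control libraries and 136, 116 and 131 FPKM in APPswe libraries. The spread within a genotype was 3.72% of the mean in controls and 8.02% in APPswe. The mean rose from 55.2 ± 2.05 to 128 ± 10.3 FPKM, a ratio of 2.32, and the log2 fold change was 1.43 (SE 0.080, 95% interval 1.25 to 1.61, edgeR adjusted p = 1.48e-06).

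Mmp12, which encodes macrophage elastase, was the only member that was down-regulated. In control libraries 1 to 3 it stood at 85.3, 161 and 132 FPKM, the highest level of the 8 metalloproteinases. In APPswe libraries it was 27.7, 19.3 and 21.5 FPKM, below the lowest control in each. The mean fell from 126 ± 38.3 to 22.8 ± 4.34 FPKM, a ratio of control to APPswe of 5.52, with a log2 fold change of -2.25 (SE 0.238, 95% interval -2.79 to -1.70, edgeR adjusted p = 5.52e-05). Macrophage markers moved both ways, with 5 of 15 up-regulated and 5 down-regulated. Among them Mrc1, a mannose receptor of macrophages, had a log2 fold change of -2.38 and Cx3cr1, a chemokine receptor of monocytes and macrophages, one of -2.05, while Aif1 and Adgre1, both general macrophage markers, had log2 fold changes of 2.04 and 1.89. Their part in the Mmp12 result was not tested.

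The other 3 metalloproteinases were not called in either direction. Mmp2 encodes gelatinase A. Its level was 13.4, 12.1 and 13.0 FPKM in controls and 11.8, 10.7 and 11.1 FPKM in APPswe, so the FPKM ranges did not overlap and APPswe was the lower. After TMM normalization the log2 fold change was 0.02 (SE 0.074, 95% interval -0.15 to 0.19, edgeR adjusted p = 0.811), and with library size alone it was -0.19 and passed the adjusted p as lower (edgeR adjusted p = 0.0319), so both its direction and its side of that threshold depended on the scaling.

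Mmp8 encodes neutrophil collagenase. It was 4.74, 4.89 and 4.55 FPKM in controls and 3.67, 3.46 and 3.73 FPKM in APPswe, again without overlap in FPKM, with a log2 fold change of -0.17 (SE 0.096, 95% interval -0.39 to 0.05, edgeR adjusted p = 0.158). With library size alone the log2 fold change was -0.38 and passed the adjusted p as lower (edgeR adjusted p = 0.00628), so its side of that threshold depended on the scaling. Neutrophil markers were low in both genotypes. The 10 markers summed to 13.6 to 54.3 FPKM in control and 19.1 to 52.2 FPKM in APPswe libraries, Ly6g was at 0 counts in the 3 controls and at 0, 1 and 1 counts in APPswe, and 1 of the 8 markers tested was up-regulated, the antimicrobial peptide gene Camp, with 0 down-regulated.

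Mmp19, a metalloproteinase of broad tissue distribution, was 8.74, 9.47 and 9.30 FPKM in controls and 6.32, 8.70 and 9.05 FPKM in APPswe, with overlapping ranges. Its log2 fold change was 0.02 (SE 0.118, 95% interval -0.25 to 0.29, edgeR adjusted p = 0.875) and -0.19 with library size alone. Its estimated counts were fractional in all 6 libraries, so some of its reads had been shared out between features.

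**Figure D2:**
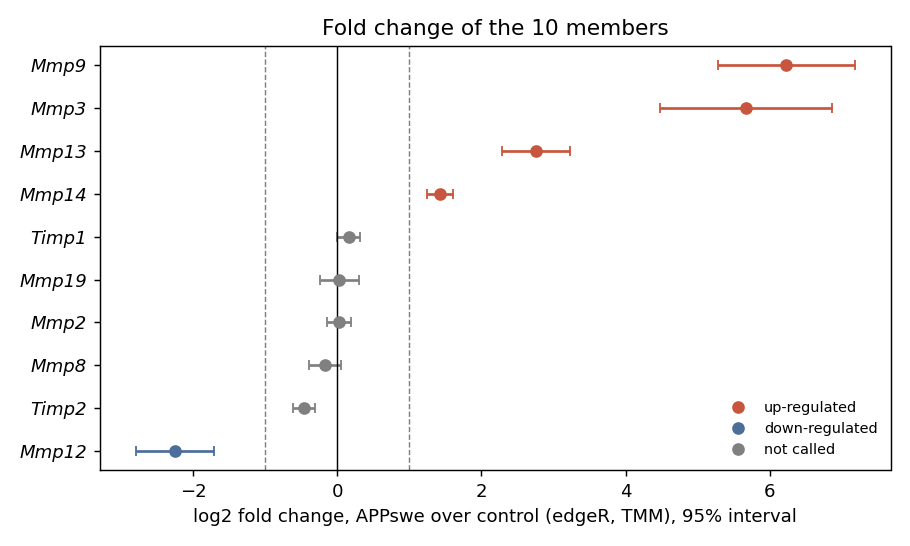
Points are log2 fold changes of APPswe over control from edgeR with TMM normalization and bars are 95% intervals, with dashed lines at a log2 fold change of 1 in each direction. Mmp9, Mmp3, Mmp13 and Mmp14 lie wholly above the upper line and Mmp12 wholly below the lower one, whereas the interval of Timp2 excludes 0 but stays inside both lines.

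The inhibitors did not follow the enzymes that rose. Timp1 had the highest mean level of the 10 genes in both genotypes, although Mmp12 exceeded it in control library 2 and Mmp9 in APPswe library 1. It stood at 148, 141 and 134 FPKM in controls and 144, 130 and 133 FPKM in APPswe libraries. The ranges overlapped, and the log2 fold change was 0.16 (SE 0.071, 95% interval -0.01 to 0.32, edgeR adjusted p = 0.0846), or -0.06 with library size alone. Timp2 was 125, 141 and 127 FPKM in controls and 76.7, 87.2 and 83.3 FPKM in APPswe libraries, each of which lay below every control. Its mean went from 131 ± 8.63 to 82.4 ± 5.28 FPKM, and its log2 fold change of -0.46 (SE 0.066, 95% interval -0.61 to -0.30, edgeR adjusted p = 0.00037) passed the adjusted p but not the fold threshold.

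Ratios of genes within a library do not depend on how libraries are scaled to each other. The FPKM of Mmp14 over that of Timp2 was 0.460, 0.378 and 0.431 in control and 1.77, 1.34 and 1.58 in APPswe libraries, so that Mmp14 passed from below to above Timp2 in each. The ratio of Mmp9 to Timp1 was 0.0132 ± 0.00474 in controls and 0.883 ± 0.325 in APPswe. Timp1 and Timp2 were near parity in controls, at a ratio of 1.08 ± 0.096, and Timp1 exceeded Timp2 in APPswe, at 1.65 ± 0.199. For each of these ratios all APPswe libraries were above all controls.

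The 8 metalloproteinases summed to 178, 252 and 224 FPKM in control and 417, 297 and 363 FPKM in APPswe libraries. The 2 TIMPs summed to 273, 282 and 261 FPKM in controls and 220, 217 and 216 FPKM in APPswe. Each control library thus held less metalloproteinase than TIMP transcript per length, at 0.801 ± 0.130, and each APPswe library held more, at 1.65 ± 0.263. The makeup of the sum changed more than its size. Mmp12 made up 56.9% ± 8.23 of it in controls and 6.35% ± 0.369 in APPswe, while Mmp9 went from 0.924% ± 0.540 to 32.7% ± 8.72 and Mmp13 from 3.45% ± 0.403 to 12.2% ± 0.362. The share of Mmp14 was 26.0% ± 5.67 and 36.0% ± 3.26, with every APPswe library above every control by a narrow margin, 32.6% against 32.2%. These sums are of transcripts and say nothing of enzyme activity.

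**Figure D3:**
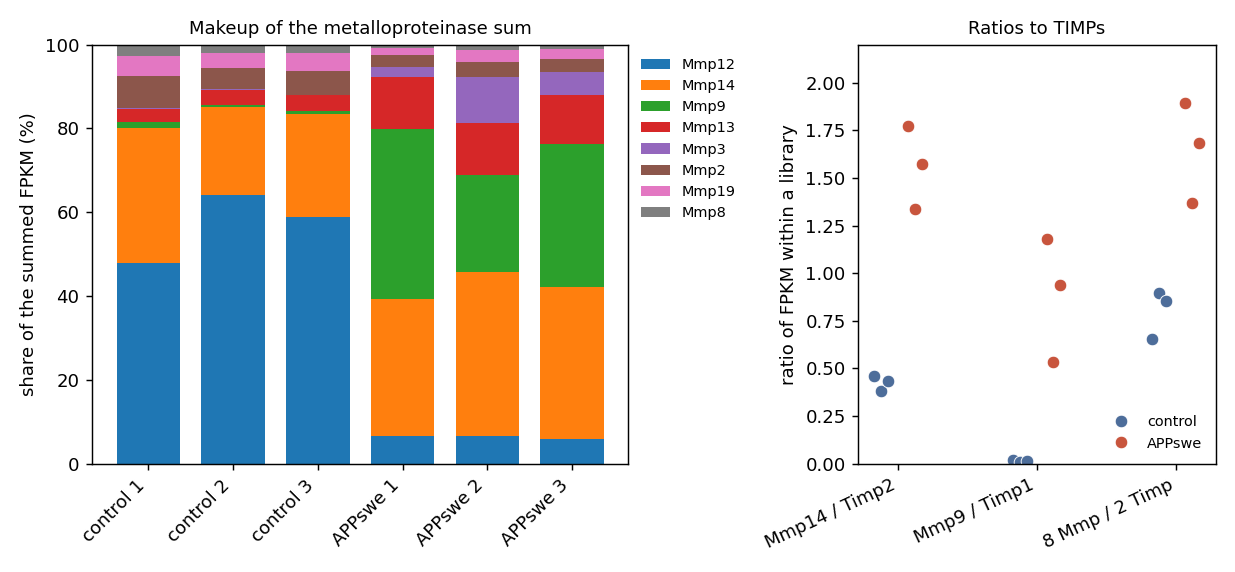
Left, stacked bars give the share of each metalloproteinase, in percent, in the summed FPKM of the 8 in each library, and right, points give ratios of FPKM within a library for the 3 control (blue) and 3 APPswe (red) libraries. Mmp12 fills most of the sum in control libraries 2 and 3 and 47.9% in control library 1 but at most 6.63% in APPswe, and Mmp9 fills 23.3% to 40.5% in APPswe.

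The order of the levels changed accordingly. In controls the mean FPKM descended from Timp1 through Timp2, Mmp12, Mmp14, Mmp2, Mmp19, Mmp13, Mmp8 and Mmp9 to Mmp3. Neighbours whose library values overlapped were Timp1 and Timp2, Timp2 and Mmp12, and Mmp19 and Mmp13. In APPswe the order was Timp1, Mmp14, Mmp9, Timp2, Mmp13, Mmp12, Mmp3, Mmp2, Mmp19 and Mmp8. There the first 3 each overlapped with the next, as did Mmp12 with Mmp3 and Mmp3 with Mmp2, and the remaining neighbours were separate.

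The members include neighbours on one chromosome. Mmp13, Mmp12, Mmp3 and Mmp8 lie in one cluster on chromosome 9 (GRCm38.p6, chr9:7272514-7699585), which holds 10 metalloproteinase genes over 427 kb and 0 other protein-coding genes of the RefSeq annotation. Genes of the cluster changed in opposite directions. From the Mmp13 end, Mmp13 was up-regulated, the adjacent Mmp12 was down-regulated, Mmp3 was up-regulated, and Mmp8 was not called. Of the other 6 genes, Mmp10, which encodes stromelysin 2, was up-regulated from 3, 7 and 10 counts to 38, 17 and 26 counts (log2 fold change 2.06, SE 0.471, edgeR adjusted p = 0.00471). Mmp27 was higher by 0.91 on the log2 scale (SE 0.160, edgeR adjusted p = 0.0011), under the fold threshold. Mmp1b and Mmp20 were too low to be tested and Mmp1a and Mmp7 were not analysed here. The other 6 members lie on separate chromosomes: Mmp9 at chr2:164940326-164955850, Mmp14 at chr14:54431598-54442456, Mmp2 at chr8:92827290-92853421, Mmp19 at chr10:128790910-128800827, Timp1 at chrX:20870166-20874737 and Timp2 at chr11:118301061-118355411.

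**Figure D4:**
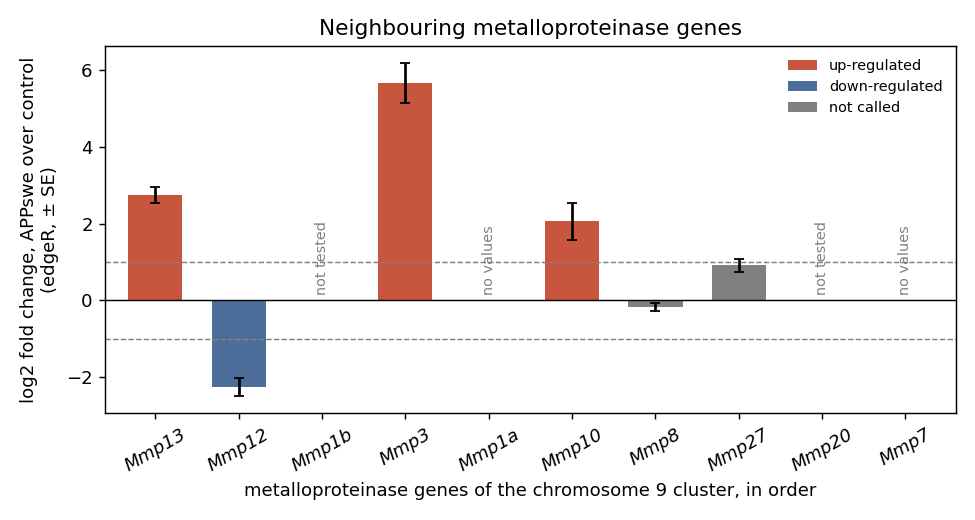
Bars are log2 fold changes of APPswe over control with standard errors for the metalloproteinase genes of the chromosome 9 cluster in their order along the chromosome, and dashed lines mark a log2 fold change of 1 in each direction. Mmp13, Mmp3 and Mmp10 point up and Mmp12, which lies between Mmp13 and Mmp3, points down.

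Sequence upstream of the start of transcription is shown for the members of this cluster that were called, which moved in both directions, and for Timp2, the inhibitor with the larger difference. RefSeq windows of 250 bases before to 50 bases after the start (GRCm38.p6) matched 7 of the 10 genes, with a pair of windows for Mmp12. Mmp2, Mmp9 and Mmp19 had none. Both strands of each window were searched for TGANTCA, the site that AP-1, a dimer of Fos and Jun proteins, is known to bind, and for TATAAA, the core of the TATA box, motifs that do not overlap each other. The 120 bases that end just before the first transcribed base are given 5′ to 3′ on the strand of the gene, with matches to either motif in capitals.
Mmp3, chr9:7445702-7445821, plus strand: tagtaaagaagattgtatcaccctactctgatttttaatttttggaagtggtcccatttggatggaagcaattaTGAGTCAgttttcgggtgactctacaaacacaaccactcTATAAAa
Mmp13, chr9:7272394-7272513, plus strand: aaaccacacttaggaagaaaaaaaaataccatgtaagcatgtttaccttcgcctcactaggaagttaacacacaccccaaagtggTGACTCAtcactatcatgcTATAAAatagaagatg
Mmp12, second start, chr9:7347254-7347373, plus strand: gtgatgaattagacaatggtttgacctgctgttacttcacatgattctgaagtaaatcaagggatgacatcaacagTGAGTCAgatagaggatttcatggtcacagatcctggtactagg
Timp2, chr11:118355412-118355531, minus strand: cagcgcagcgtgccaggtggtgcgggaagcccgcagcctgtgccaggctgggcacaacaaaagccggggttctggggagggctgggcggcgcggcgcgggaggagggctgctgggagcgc

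Mmp3, Mmp13 and the second start of Mmp12 each held 1 match to TGANTCA, beginning at positions -46, -35 and -44 from the start, as TGAGTCA in Mmp3 and Mmp12 and TGACTCA in Mmp13. Mmp10, the other up-regulated gene of the cluster, held TGAGTCA at -63 and TATAAA at -29. Up-regulated genes and the down-regulated gene of the cluster therefore both held a match. TATAAA was found at position -7 in Mmp3, at -16 in Mmp13 and at 5, within the transcribed part, in the second window of Mmp12. Mmp8 held 1 match to TATAAA on the opposite strand at -3 and none to TGANTCA. Timp1, Timp2, Mmp14 and the first window of Mmp12 held neither. TGANTCA was present in 7.81% of all 32851 windows, TATAAA in 13.6% and both in 1.54%. Timp2 also differed in composition, with 75.0% G and C in the bases shown against 35.8% in Mmp3.

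Of 7 genes of AP-1 subunits tested, 0 were up-regulated and 2 were down-regulated in APPswe cells, and by adjusted p alone 0 were higher and 5 were lower, with a median log2 fold change of -0.83 against -0.02 for all genes. Fos was 314, 450 and 393 FPKM in controls and 120, 93.8 and 113 FPKM in APPswe libraries (log2 fold change -1.60, edgeR adjusted p = 2.18e-05). Fosb was 11.9 to 14.3 FPKM in controls and 1.35 to 2.90 FPKM in APPswe (log2 fold change -2.37, edgeR adjusted p = 2.91e-05).

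Among the other metalloproteinases and inhibitors, 18 genes were listed and 12 could be tested, of which 2 were up-regulated and 0 down-regulated, with a median log2 fold change of -0.22. These were Mmp10 and Mmp25. Mmp25, the gene of a metalloproteinase anchored in the membrane of leukocytes, had 2, 2 and 3 counts in controls and 31, 41 and 32 counts in APPswe (log2 fold change 3.88, SE 0.350, edgeR adjusted p = 2.21e-05). By adjusted p alone 3 were higher and 2 were lower, the latter being Mmp17 and Mmp24. Timp3, an inhibitor that binds to the matrix, was 48.4, 33.8 and 42.2 FPKM in controls and 31.2, 10.99 and 22.2 FPKM in APPswe libraries, below the controls in each. Its log2 fold change of -0.73 did not pass (SE 0.324, 95% interval -1.47 to 0.02, edgeR adjusted p = 0.0794).

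The ADAM and ADAMTS families, relatives of the metalloproteinases that shed membrane proteins and cut proteoglycans, changed in both directions, with 2 of 14 genes up-regulated and 2 down-regulated and a median log2 fold change of 0.14. Adamts4, an aggrecanase, was 0.27, 0.15 and 0.34 FPKM in controls and 7.20, 2.18 and 5.04 FPKM in APPswe (log2 fold change 4.45, edgeR adjusted p = 8.78e-05). Adamts5, the other main aggrecanase, had a log2 fold change of 1.205 (edgeR adjusted p = 0.0168), with FPKM ranges that overlapped because APPswe library 1, at 0.74 FPKM, lay below the highest control. Adamts10 and Adam12 were down-regulated, with log2 fold changes of -1.78 (edgeR adjusted p = 8.29e-07) and -1.51 (edgeR adjusted p = 0.000195).

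Of 8 genes tested that act in the activation of pro-enzymes, 0 were up-regulated and 3 were down-regulated, and by adjusted p alone 1 was higher and 4 were lower, with a median log2 fold change of -0.47. Plau, the gene of urokinase, which turns plasminogen into plasmin, was 22.02, 26.2 and 26.7 FPKM in controls and 5.30, 6.70 and 6.81 FPKM in APPswe libraries (log2 fold change -1.78, edgeR adjusted p = 2.40e-06). Pcsk6, a proprotein convertase, was down-regulated as well, with a log2 fold change of -1.04 (edgeR adjusted p = 0.0209). Furin, the convertase that cleaves pro-MMP14, was lower by adjusted p alone, with a log2 fold change of -0.64 (edgeR adjusted p = 0.000101).

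Of 10 binding partners and uptake receptors, 1 was up-regulated and 1 down-regulated, with a median log2 fold change of -0.14. Lcn2, described above with Mmp9, had a log2 fold change of 6.80 (SE 0.454, edgeR adjusted p = 3.96e-06), larger than that of any metalloproteinase. Itgb3, the beta 3 integrin chain, had a log2 fold change of -1.58 (edgeR adjusted p = 9.11e-05). Of 11 substrate genes tested, 1 was up-regulated (Dcn, log2 fold change 3.92, edgeR adjusted p = 0.00137) and 1 down-regulated (Col2a1, the cartilage collagen, log2 fold change -2.11, edgeR adjusted p = 0.00325), and by adjusted p alone 2 were higher and 6 were lower. The 13 substrates listed summed to 1284 to 1336 FPKM in controls and 689 to 986 FPKM in APPswe libraries, without overlap. Most of this sum was Spp1, the gene of osteopontin, at 870, 1000.3 and 963 FPKM in controls and 481, 672 and 530 FPKM in APPswe libraries. Without Spp1, an omission chosen after the data were seen, the other 12 summed to 326 to 414 FPKM in controls and 208 to 315 FPKM in APPswe, so that the genotypes were separated by a narrow margin.

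Osteoclast markers are given because Mmp9 is a gene of osteoclasts. Of 6 tested, 2 were up-regulated and 2 down-regulated, and the summed level was 35.9 to 58.8 FPKM in control and 34.9 to 57.0 FPKM in APPswe libraries. Acp5, tartrate-resistant acid phosphatase, was 3.49, 5.62 and 4.93 FPKM in controls and 46.1, 22.3 and 35.7 FPKM in APPswe libraries. Ocstamp, a membrane protein gene needed for osteoclast fusion, had 0, 0 and 1 counts in controls and 30, 31 and 54 counts in APPswe libraries and was also up-regulated (edgeR adjusted p = 5.34e-05). Ctsk, cathepsin K, averaged 6.94 and 4.67 FPKM, and Atp6v0d2, a proton pump subunit, went from 34.9 to 5.37 FPKM on average. In the 3 APPswe libraries the levels of Acp5 stood in the order of those of Mmp9, and those of Ocstamp did not. In the controls the order of Acp5 was the reverse of that of Mmp9. The part of these markers in the Mmp9 result was not tested. Endothelial markers summed to 3.67 to 4.78 FPKM in control and 4.96 to 5.51 FPKM in APPswe libraries, without overlap. Of 3 tested, 1 was up-regulated (Pecam1, log2 fold change 1.03) and 0 down-regulated, and by adjusted p alone 1 was higher and 1 was lower. The 5 lymphoid markers summed to at most 0.22 FPKM in any library.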

How the data were processed

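Processing notes of the submitters name HISAT2 2.0.4, Bowtie2 2.2.5, RSEM 1.2.12 and DESeq2 1.4.5 and the build mm10; the annotation is not given in the sources used here. The authors deposited estimated counts per gene, of which 13.3% to 14.4% of genes per library were fractional because reads that fit several features were shared out. The authors also deposited FPKM for the same genes, which are levels per length and were used as printed. A second table, which holds FPKM and the authors' own log2 ratios and p-values, was not used.

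After rounding of the estimated counts, the genotypes were compared by the quasi-likelihood test of edgeR 4.0.16 under R 4.3.3, with filterByExpr, TMM normalization and no replicate block, over all 12701 genes that passed the filter, with Benjamini-Hochberg adjustment over all of them. The standard error is the log2 fold change divided by the root of F. Genes were called at an adjusted p of 0.05 and a log2 fold change of 1. The scripts were tested on simulated data. A count of 3 corresponds to 0.136 to 0.155 CPM, and such limits cover counting error only. Libraries of a genotype differed by more than sampling noise, so none was counted as a duplicate. Positions and promoter sequences are from RefSeq (GRCm38.p6). Positions of the members were matched by Entrez gene identifier, and promoter windows and the genes of the cluster by symbol.

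The members and the gene lists beside them were chosen with earlier results of these data known. All 10 members are named. Of the other lists, up to 4 called genes with the largest change are named, except 1 that is not reported here, and further genes (Furin, Timp3, Mmp17, Mmp24, Mmp27, Ctsk, Spp1, App and the marker genes) were named after their values were seen. Alternatives were DESeq2 1.42.0, other size factors and filters, limma 3.58.1 on log2(FPKM + 1) and log2(FPKM + 0.1) for genes with a mean of at least 0.5 FPKM, a replicate block and the omission of each library.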

Additional observations from a re-analysis of the deposited data

How the results depend on the processing

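The 5 members called (Mmp9, Mmp3, Mmp13, Mmp14 and Mmp12) stayed called in the same direction under each alternative that could test them. Mmp3 was not tested where at least 10 counts were required in every library, since control library 3 held 9. Their log2 fold changes ranged from 5.34 to 6.59 for Mmp9, 3.76 to 5.99 for Mmp3, 2.40 to 2.90 for Mmp13, 1.19 to 1.51 for Mmp14 and -2.48 to -2.03 for Mmp12, and that of Timp2 from -0.67 to -0.40. Without the fold threshold 4122 genes were higher and 4007 lower, and 2 members were lower, Mmp12 and Timp2. With limma on log2(FPKM + 1) 593 genes were up-regulated, and 589 without the filter. With library size alone 846 genes were up-regulated and 1732 down-regulated, so that 32.8% of the calls were upward against 49.2%, and with limma on log2(FPKM + 0.1) it was 34.4%. Small differences of 3 members turned sign: with library size alone, limma on log2(FPKM + 1), limma on log2(FPKM + 0.1) and limma on log2(FPKM + 1) without the filter, the log2 fold change was -0.194, -0.180, -0.193 and -0.180 for Mmp2, -0.189, -0.186, -0.207 and -0.186 for Mmp19 and -0.0598, -0.0599, -0.0603 and -0.0599 for Timp1. Omitting one library at a time gave -0.0320 to 0.0712 for Mmp2 and -0.0606 to 0.158 for Mmp19. Under the 4 library size and limma settings, in the order given, Mmp2 passed the adjusted p as lower, at 0.0319, 0.0376, 0.0370 and 0.0493. The cause was not tested. Mmp8 had a log2 fold change of -0.38 to -0.12 over the alternatives, and passed the adjusted p with library size alone and in the 3 limma settings (0.00628, 0.00425, 0.00457 and 0.0115) and in none of the others (up to 0.426). Deviations of same-numbered libraries correlated at 0.0127, 0.00664 and 0.141, so the numbers were not taken as pairs, and with a replicate block 1115 genes were up-regulated and 1147 down-regulated, with 4 members up-regulated and 1 down-regulated. Counts of Mmp3 in controls (9 to 21) and of Mmp10 and Mmp25 (2 to 10) limit the precision of their folds.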
